A study of Drosophila melanogaster with 3 samples.

Results

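The genes described here encode the factors that start and extend protein synthesis and the enzymes that load amino acids onto tRNAs. A protein-coding gene was a member when its symbol begins with eIF or eEF, or is a three-letter amino acid name followed by RS or RS-m, with GluProRS added. The rule gave 85 of the 13945 protein-coding genes on the 6 assembled chromosome arms: 44 initiation factors, 8 elongation factors, 18 cytosolic synthetases and 15 synthetases whose symbol ends in -m, the mark of the mitochondrial enzymes. The rule used symbols and no measured value. Cytosolic here means a synthetase symbol without -m, and whether the product also serves mitochondria was not examined.

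The study mapped where PHDP, a paired-like homeodomain protein of Drosophila melanogaster, sits on the genome, by chromatin immunoprecipitation and sequencing (ChIP-seq). Whole embryos aged 10 to 24 hours came from a transgenic line that stably carries PHDP with GFP at its C-terminal end, and an antibody to GFP pulled down the fusion protein, although another label gives the antibody as PHDP. All 3 samples were biological replicates of this 1 group, so the comparisons below are between groups of genes and not between conditions. Whole embryos mix all cell types, and no untagged sample was analysed here.

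Initiation factors bring the small ribosomal subunit, the initiator tRNA and the capped mRNA together, elongation factors carry aminoacyl-tRNAs to the ribosome and move it along, and aminoacyl-tRNA synthetases charge each tRNA with its amino acid. Mitochondria run a separate translation system with synthetases that are encoded in the nucleus. Nearly every cell needs the cytosolic machinery, and many of its genes in flies start from housekeeping promoters, some shared back to back with a neighbouring gene.

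The deposited peak lists held 30000 peaks for replicate 1, 30000 for replicate 2 and 29995 on the 6 arms for replicate 3, with 30000 peaks for the 3 replicates pooled. A shorter list of 7092 peaks had passed the irreproducible discovery rate (IDR), a measure of how well peaks rank alike in replicates. Each peak has a summit and the authors' signal value, whose scale, and whether it is shared between replicates, the sources used here do not state. A gene was counted as bound when a summit lay within 1 kb of any of its annotated transcription start sites. Read totals were not given, so depth is unknown, and a gene without a peak is one whose peak was not called.

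Of the 85 genes, 36 had an IDR summit within 1 kb, 42.4% (95% exact binomial interval 31.7 to 53.6% over genes), against 28.9% of all protein-coding genes. The elongation factors and the cytosolic synthetases were each at 50%, with 4 of 8 genes (interval 15.7 to 84.3%) and 9 of 18 genes (26.0 to 74.0%). Initiation factors followed with 18 of 44 genes, 40.9% (26.3 to 56.8%). The mitochondrial synthetases were lowest, with 5 of 15 genes, 33.3% (11.8 to 61.6%). A further filter set 1 replicate aside and kept only IDR peaks matched in the strongest peaks of both others. The mitochondrial share was then 26.7% without replicate 1 and 20.0% without replicate 2 or 3. The cytosolic share was 38.9% without replicate 1 or 2 and 33.3% without replicate 3. Under this filter the share of all protein-coding genes fell too, to between 21.6% and 22.7%. The intervals of the 4 groups overlapped one another, and the 3 groups other than the initiation factors are small.

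In the longer pooled list the genes stood closer to the genome as a whole. It had a summit near 46 of the 85 genes, 54.1%, against 50.6% of all protein-coding genes. The 10 genes added by the pooled list were 6 initiation factors, 2 elongation factors and 2 cytosolic synthetases, with no mitochondrial synthetase among them. In the whole replicate lists the shares were 61.2%, 67.1% and 64.7% of members in replicates 1, 2 and 3, against 52.6%, 55.8% and 54.7% of all protein-coding genes. With a summit required in all 3 whole lists, the shares were 54.1% and 45.5%. The distance from the background thus differed between lists of like length.

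Each replicate's 5000 strongest peaks gave these shares a replicate error. A summit lay near 28 of the 85 genes in replicate 1, 27 in replicate 2 and 33 in replicate 3, which is 32.9%, 31.8% and 38.8% (mean 34.5% ± 3.78, SD, n = 3). The background shares over all protein-coding genes were 22.3%, 22.9% and 22.9% (mean 22.7% ± 0.377, SD, n = 3). The members stood above the background by 10.7, 8.82 and 15.9 percentage points in replicates 1, 2 and 3, a mean of 11.8 ± 3.68 points (two-sided exact sign-flip permutation test, p = 0.25, n = 3). With 3 replicates 0.25 is the smallest p this test can give, so no difference below can pass a threshold of 0.05. The direction was the same in 3 of 3 replicates. The mean difference was 4.72 points with the strongest 2500 peaks and 14.3 points with the strongest 10000.

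Among the groups, the elongation factors had the steadiest share, 4 of 8 genes in every replicate, and the mitochondrial synthetases the least steady one. The cytosolic synthetases had 9, 8 and 8 of 18 genes near the strongest 5000 peaks (mean 46.3% ± 3.21, SD, n = 3). The mitochondrial synthetases had 2, 3 and 5 of 15 genes (mean 22.2% ± 10.2, SD, n = 3). Their difference from the protein-coding genes outside the rule was -8.87, -2.89 and 10.5 points (mean -0.414 ± 9.93), so its sign changed between replicates. For the cytosolic synthetases that difference was 27.8, 21.6 and 21.6 points (mean 23.7 ± 3.58). The cytosolic share was higher in 3 of 3 replicates, by 36.7, 24.4 and 11.1 points (mean 24.1 ± 12.8, exact sign-flip permutation p = 0.25), and the size of that gap varied between replicates.

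Initiation factors had 13, 12 and 16 of 44 genes near these peaks (mean 31.1% ± 4.73, SD, n = 3). Their share was below that of the cytosolic synthetases by a mean of 15.2 points (first minus second, -15.2 ± 6.41, exact sign-flip permutation p = 0.25, n = 3). It was below that of the elongation factors too (-18.9 ± 4.73 points, exact sign-flip permutation p = 0.25, n = 3). Both directions held in 3 of 3 replicates.

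The 2 large ribosomal protein lists of the same machinery had higher means than the members. The 92 cytoplasmic ribosomal protein genes reached 80.8% ± 1.26 (SD, n = 3) in the same peaks, 46.3 ± 5.03 points above the members (exact sign-flip permutation p = 0.25), in 3 of 3 replicates. The 73 mitochondrial ribosomal protein genes reached 37.4% ± 1.58 (SD, n = 3). Their difference from the members changed sign between replicates (members minus mitochondrial ribosomal proteins -5.41, -3.85 and 0.467 points; exact sign-flip permutation p = 0.5), so it was within the replicate spread.

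**Figure D1:**
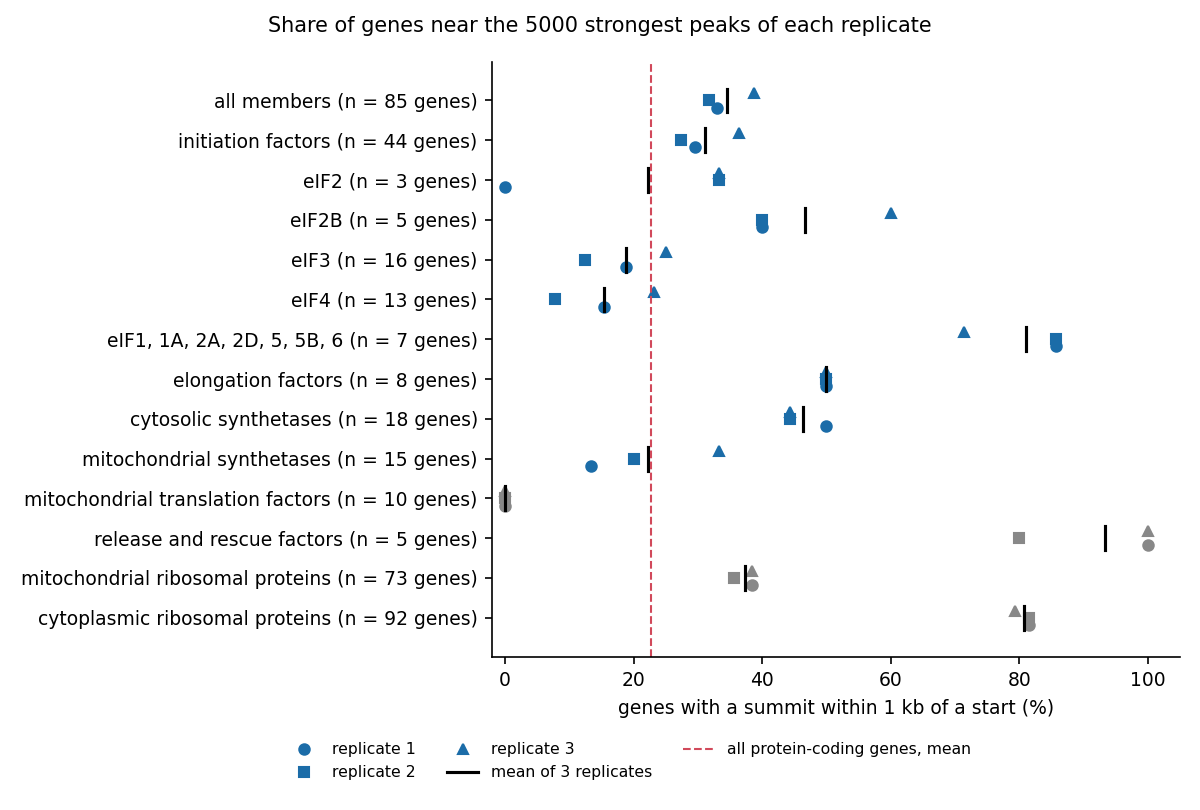
Share of the genes in each list with a summit within 1 kb of a start among the 5000 strongest peaks of each replicate (horizontal axis, percent). Symbols are the 3 replicates, black bars their means and the dashed line the mean of all protein-coding genes, 22.7%. The initiation factors outside the large complexes (eIF1, eIF1A, eIF2A, eIF2D, eIF5, eIF5B and eIF6) lie far to the right. So do the release factors and the cytoplasmic ribosomal proteins, while the mitochondrial translation factors lie at 0. That last list also holds mTTF, a transcription termination factor.

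The share of initiation factors with an IDR peak differed by complex, though the intervals overlapped. Of the 7 that belong to none of the large complexes, 6 had an IDR peak (85.7%, interval 42.1 to 99.6%): eIF1 and eIF1A, which help the ribosome scan for the start codon, eIF2A and eIF2D, alternative carriers of tRNA, eIF5B, which joins the subunits, and eIF6, which keeps the large subunit free. The other one, eIF5, had a pooled peak only. Of the 16 genes for eIF3, the scaffold of the initiation complex, 5 had an IDR peak (31.2%, interval 11.0 to 58.7%), near the 28.9% of all protein-coding genes: eIF3a, eIF3b, eIF3c, eIF3h and eIF3m. Of 13 eIF4 genes, whose products handle the mRNA cap, 3 had one (eIF4A, eIF4EHP and eIF4G2; 23.1%, interval 5.04 to 53.8%), also with the background inside the interval.

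In the strongest 5000 peaks the 7 single factors had 6, 6 and 5 genes bound and the 16 eIF3 genes had 3, 2 and 4. Their means were 81.0% and 18.8%, against 22.7% of all protein-coding genes, so eIF3 was near the background. That put eIF3 lower by 62.2 points on average (eIF3 minus the single factors -62.2 ± 14.0, exact sign-flip permutation p = 0.25, n = 3), in 3 of 3 replicates. This contrast was not among the planned differences and was not recomputed under the alternatives. eIF2, which brings the initiator tRNA, had 1 of 3 genes bound in the IDR list (eIF2beta). Its exchange factor eIF2B had 3 of 5 (eIF2Bbeta, eIF2Bdelta and eIF2Bgamma). The intervals, 0.84 to 90.6% for eIF2 and 14.7 to 94.7% for eIF2B, contain the 28.9% of all protein-coding genes.

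Paralogous genes are given next. The cap-binding eIF4E family has 7 genes, and eIF4EHP, whose product binds caps and represses translation, was the one with an IDR peak. eIF4E1 had a pooled peak only, ranked 10479. Its strongest summit within 1 kb had a signal of 26.6, 61.5 and 32.3 in replicates 1, 2 and 3. eIF4E3, eIF4E4, eIF4E5, eIF4E6 and eIF4E7 had none in the pooled list. The eIF4G scaffold genes differed too: eIF4G2 had an IDR peak, and eIF4G1 had a pooled peak only. The strongest summit within 1 kb of eIF4G1 had a signal of 35.6, 27.1 and 25.6 in the 3 replicates. The long genes eIF4B and eIF2gamma had no pooled peak.

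The paralogue pairs of eIF3 had no IDR peak at either copy. eIF3d1 and eIF3d2 had no summit in any list, eIF3f1 and eIF3f2 none in the pooled list, and eIF3g1 a pooled peak ranked 18866 with none at eIF3g2. The RNA-binding cofactors eIF4H1 and eIF4H2 had a pooled peak and no summit, in that order. For eEF1alpha, the factor that carries aminoacyl-tRNA to the ribosome, the copies differed as well: eEF1alpha1 had a peak in every list, while eEF1alpha2 had weak peaks in replicates 1 and 3 (signal 24.1 and 19.5) and none in replicate 2 or the pooled list.

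**Figure D2:**
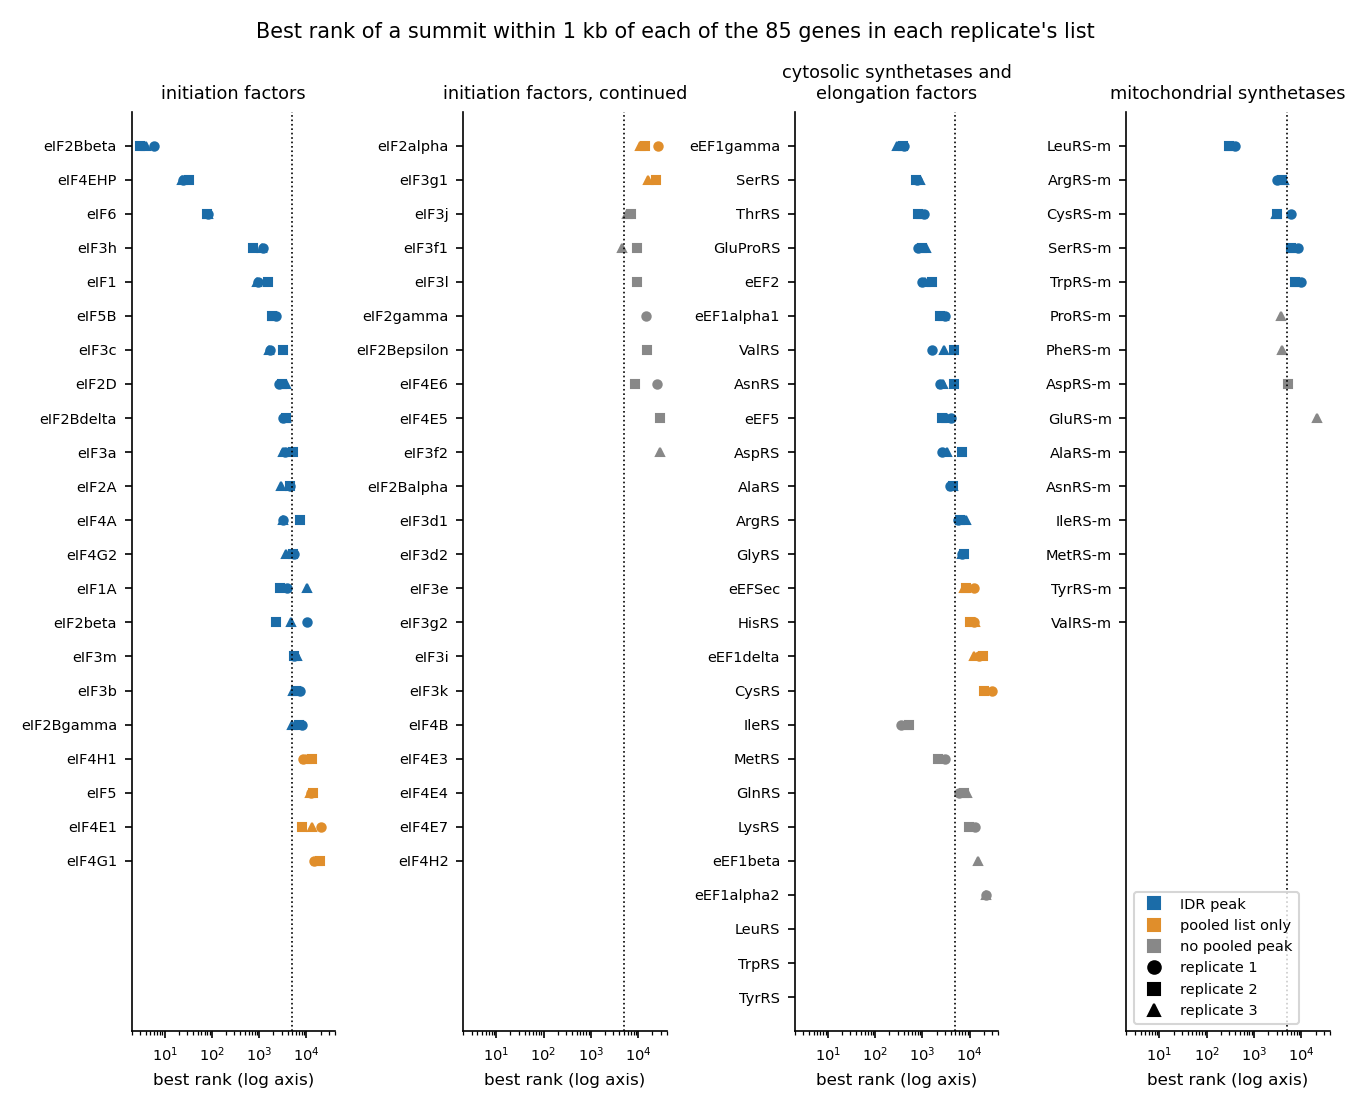
Best rank, in each replicate's list, of a summit within 1 kb of each of the 85 genes (horizontal log axis, rank 1 is strongest). Symbols are replicates, colours give the list that holds a peak, the dotted line marks rank 5000, and a gene with no symbol has no summit in any replicate. IleRS stands out as a gene with no pooled peak that ranks between 361 and 510 in all 3 replicates.

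The strongest peak of any member lay upstream of eIF2Bbeta, a subunit of the eIF2 exchange factor. Its signal was 1922, 2461 and 1742 in replicates 1, 2 and 3 (mean 2042 ± 374, SD, n = 3), and it ranked 4 in the pooled list. This peak (chrX:2703656-2704096, dm6) sits between divergent genes: its summit was 28 bp from the start of Ugalt, a nucleotide sugar transporter gene, and 691 bp from that of eIF2Bbeta. So the peak counts for both genes, and which of them it serves was not tested.

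The peak of eIF4EHP came next, at chr3R:24108911-24109419. Its signal was 1311, 1411 and 1041 in the 3 replicates (mean 1254 ± 192, SD, n = 3), and its pooled rank was 26. It too lay between divergent starts, 148 bp from CG18428 and 228 bp from eIF4EHP. eIF6 had the strongest peak at which the member's own start was the nearest protein-coding one, 108 bp downstream of the summit. The signal at eIF6 was 832, 981 and 679 (mean 830 ± 151, SD, n = 3), with a pooled rank of 79, and the summit fell within the antisense RNA gene asRNA:CR45928. The next initiation factor, eIF3h, had a signal of 227, 319 and 188 (mean 245 ± 67.7, SD, n = 3) at an intronic summit, 613 bp inside the gene from its outer annotated start and 299 bp downstream of its inner one.

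Elongation factor peaks were tight on the starts. All 4 summits lay between 51 and 19 bp upstream of the nearest annotated start, and that start was the member's own in each case. At eEF2 and eEF5 it was an inner start, and the summit lay 29 and 31 bp downstream of the gene's outer one, in the 5' UTR. eEF1gamma, a subunit of the exchange factor that recharges eEF1alpha, had a signal of 411, 451 and 387 (mean 416 ± 32.3, SD, n = 3). The translocase eEF2 had 263, 200.1 and 192 (mean 218 ± 38.7, SD, n = 3), at ranks 958, 1612 and 1120. eEF1alpha1 had 123, 157 and 104 (mean 128 ± 27.1, SD, n = 3). eEF5, the fly eIF5A homologue, had 101, 147 and 94.6 (mean 114 ± 28.8, SD, n = 3). The other 4 elongation genes, eEF1alpha2, eEF1beta, eEF1delta and eEFSec, had no IDR peak.

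Among the cytosolic synthetases, SerRS, ThrRS and GluProRS led with similar values. SerRS had 296, 322 and 219 (mean 279 ± 53.4, SD, n = 3), ThrRS had 244, 299 and 205 (mean 250 ± 47.4, SD, n = 3), and GluProRS, a fused enzyme for glutamate and proline, had 285, 272 and 185 (mean 247 ± 54.1, SD, n = 3). These means differ by less than 1 SD. ValRS was lower, at 191, 95.4 and 103 (mean 130 ± 52.9, SD, n = 3). Replicate 1 was the high one at ValRS, whereas replicate 3 was the lowest at the other 3 genes.

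The longest cytosolic synthetase genes without an IDR peak were HisRS, LeuRS, IleRS and MetRS. HisRS had a weak peak in every replicate (signal 41.4, 51.7 and 33.2) and in the pooled list. LeuRS had no summit in any list. IleRS differed from both: its signal was 440.0, 393 and 303 in replicates 1, 2 and 3, at ranks 361, 510 and 492, with summits 161, 205 and 194 bp upstream of the start. Those values are above the mean of every bound cytosolic synthetase, yet the pooled list had no summit nearer than 11838 bp and the IDR list none within 1 kb.

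GlnRS was also found in all 3 replicates (signal 73.9, 64.5 and 46.4) without a pooled peak, and MetRS in replicates 1 and 2 (signal 125 and 167). How often a peak found in 2 replicates, as at MetRS, lacks a pooled one was not counted over all peaks. Among the strongest 5000 of all 3 replicates, where IleRS falls and GlnRS does not, such a gap was rare. Of 3365 replicate 1 peaks among the strongest 5000 with a summit within 100 bp among the strongest 5000 of both other replicates, 19 (0.565%) had no pooled summit within 1 kb. By presence among the strongest 5000 of all 3 replicates, regardless of the pooled list, 23 of 85 members were bound against 17.3% of all protein-coding genes. Of these 23, 22 also had an IDR peak, and the other one was IleRS.

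The mitochondrial synthetases with a peak were LeuRS-m, CysRS-m, ArgRS-m, SerRS-m and TrpRS-m. LeuRS-m had by far the highest signal, 425, 517 and 379 (mean 441 ± 70.2, SD, n = 3). Its summit was 819 bp upstream of LeuRS-m, inside an intron of Dhc64C, the dynein heavy chain gene, whose start was nearer. CysRS-m had 73.6, 130 and 104 (mean 103 ± 28.1, SD, n = 3) and ArgRS-m had 123, 108 and 73.8 (mean 102 ± 25.3, SD, n = 3), both within 100 bp of their starts. SerRS-m followed at 54.7, 77.5 and 59.4 (mean 63.9 ± 12.0, SD, n = 3). Of the 10 unbound genes, MetRS-m, AlaRS-m, ValRS-m and 3 others had no summit in any list, and AspRS-m had one in replicate 2 alone.

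**Figure D3:**
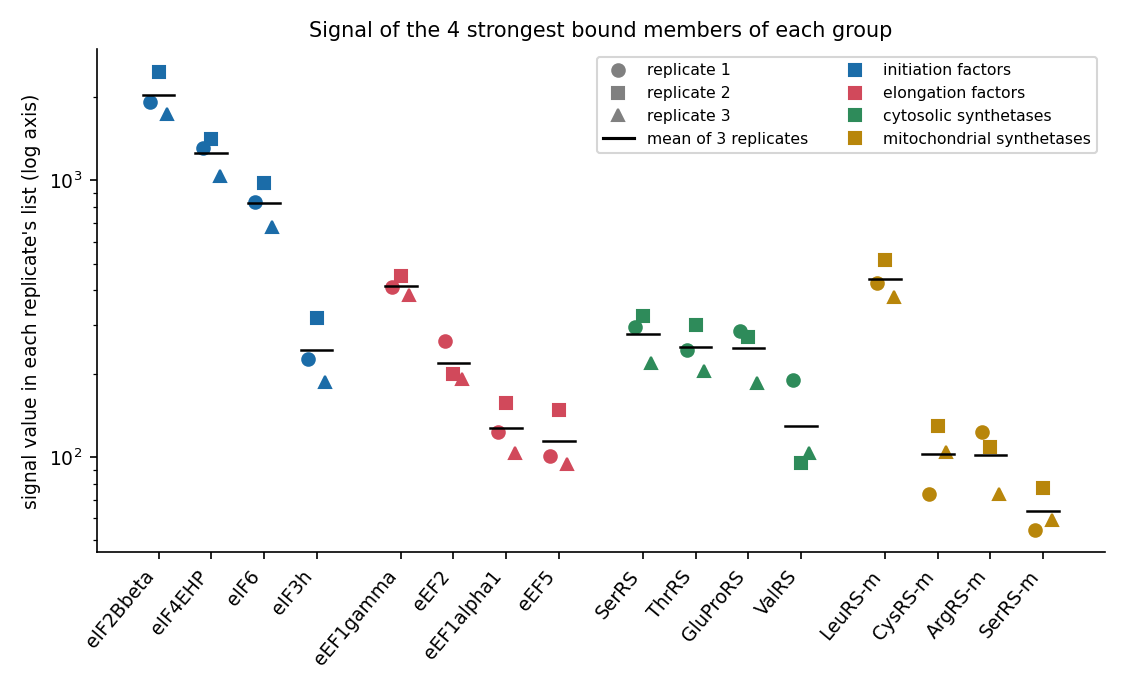
Signal value in each replicate's list (log axis) for the 4 bound members of each group with the highest pooled signal; symbols are replicates and black bars their means. The eIF2Bbeta, eIF4EHP and eIF6 peaks lie above those of all other members shown, and LeuRS-m is set apart from the other mitochondrial synthetases.

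Most of the 36 peaks lay just upstream of a start. The median summit was 96.5 bp upstream, against 138 bp over all 4031 bound protein-coding genes, and 33 of 36 summits were upstream (91.7%, against 80.6% of all bound genes), measured from the nearest of a gene's starts. Measured from the outermost start, 28 of 36 were upstream, since AspRS, eEF2, eEF5, eIF2A and eIF5B had the summit between starts. Within 200 bp of the start were 69.4% of the members' summits and 57.0% of those of all bound genes. The 3 summits downstream of the nearest start were those of eIF3h, eIF3b and eIF4G2, the last by 1 bp. By annotation 23 summits were intergenic, 6 in a 5' UTR, 5 in an intron, 1 in a 3' UTR and 1 in a non-coding exon.

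At 10 of the 36 genes (27.8%, against 24.8% of all bound genes) the start of another protein-coding gene was nearer to the summit. These were eIF2Bbeta, eIF4EHP, LeuRS-m, eIF1, GluProRS, eIF2Bdelta, eIF3a, ValRS, AspRS and ArgRS. The neighbour at eIF1 was RpL28, a ribosomal protein gene, at 97 bp against 284 bp for eIF1. When each IDR summit was given to the nearest protein-coding start alone, 27 of 85 members kept one (31.8%), against 21.7% of all protein-coding genes. The cytosolic synthetases then had 5 genes of 18 (27.8%), the initiation factors 14 of 44 (31.8%), the mitochondrial synthetases 4 of 15 (26.7%) and the elongation factors 4 of 8. Under this rule the cytosolic synthetases were below the initiation factors and 1.11 points from the mitochondrial synthetases, so the order of these groups in the IDR list rests on counting a shared peak for both genes.

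**Figure D4:**
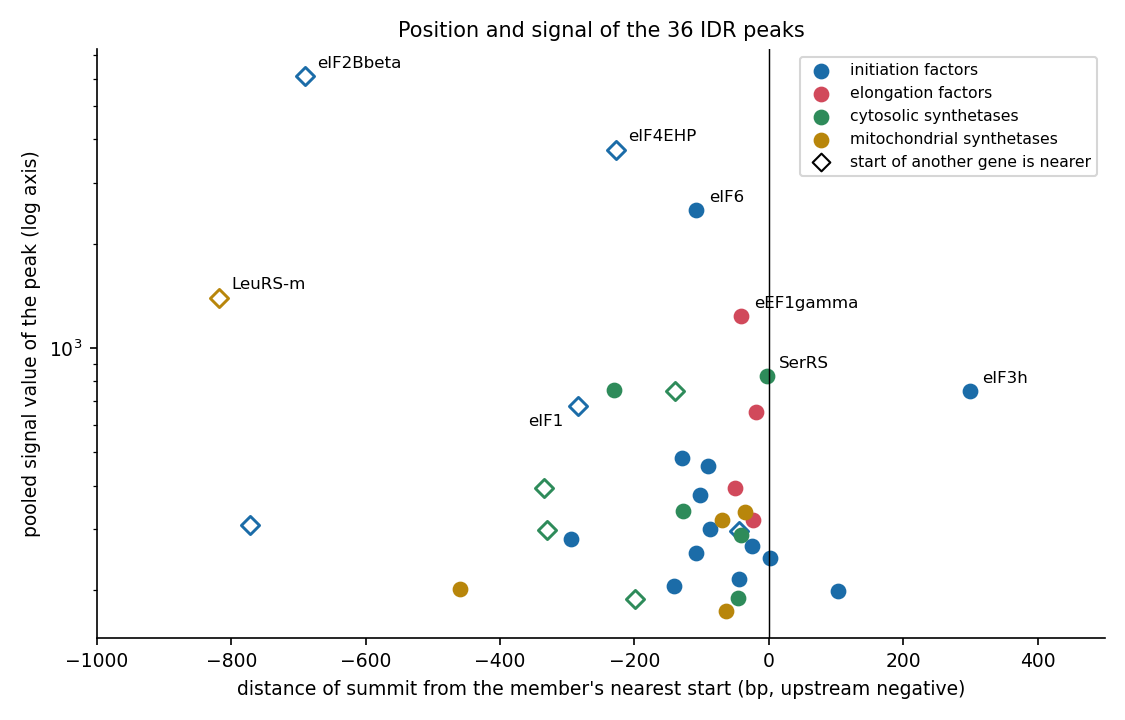
Distance of the strongest IDR summit from the member's nearest start (horizontal axis, bp, upstream negative) and the pooled signal of that peak (vertical log axis) for the 36 bound members. Colours are the groups, and open diamonds mark peaks with another protein-coding start nearer; 2 of the 3 strongest peaks, at eIF2Bbeta and eIF4EHP, are of that kind, and the elongation factors cluster just upstream of 0.

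Back-to-back promoters were common in this gene set. A protein-coding start on the other strand lay within 1 kb upstream of 49 of the 85 members, and 36.2% of all protein-coding genes had such a partner. Among members with a partner 25 of 49 had an IDR peak (51.0%), and among those without one 11 of 36 did (30.6%). The same split over all protein-coding genes gave 45.0% and 19.8%. The intervals of the members' shares, 36.3 to 65.6% and 16.3 to 48.1%, contain these values. In the pooled list members with a partner were at 61.2%, below the 66.2% of all genes with a partner. Of the 18 cytosolic synthetases 16 had a partner, at 8 of 9 bound and 8 of 9 unbound genes. Too few lacked one for this split to separate bound from unbound genes. Partners were at 21 of 44 initiation factors, 5 of 8 elongation factors and 7 of 15 mitochondrial synthetases. Whether this bears on the differences between the groups was not tested.

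Short DNA words were then counted within 100 bp of the summits, on both strands, in the 36 members' peaks and in all 3643 IDR peaks within 1 kb of a protein-coding start. The DRE, TATCGATA, is the element bound by the housekeeping factor DREF in flies. It occurred at 7 of 36 summits (19.4%), against 5.65% of the 3643, and the windows had similar GC content (median 34.1% and 34.3%). The 7 genes were eIF1, eIF1A, eIF2A, eIF3a, eIF4A, eEF1gamma and AlaRS. eIF1 and eIF1A had no whole DRE within 200 bp of their own starts. The summits of eIF1 and eIF3a were nearer the starts of RpL28 and CG1074. Narrowing the window to 50 bp left 6 of 36 (16.7%, against 2.39%). The homeodomain core word TAATTA was at 3 of 36 summits (8.33%, against 18.6%), those of AspRS, eIF2Bgamma and eIF4EHP. That gap depended on the window: the shares were 8.33% and 11.0% within 50 bp, and 25.0% and 28.8% within 200 bp.

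Sequences around 7 summits, chosen to show these words and the strongest peaks, are given 5' to 3' on the member's strand from the RefSeq copy of the dm6 genome, up to 60 bases each side and cut where an annotated exon begins. Capitals mark TATCGATA in the first 4 and TAATTA in the fifth (in eIF1 also AGATAA). The sixth is the strongest peak, and the seventh, IleRS, is centred on the replicate 2 summit. In order, they span chr3R:29220071-29220171 (+ strand), chr3L:3222997-3223117 (+), chr3R:4433896-4433964 (-), chr2L:5981679-5981763 (+), chr3R:24109128-24109248 (-), chrX:2703853-2703940 (+) and chr3L:22288400-22288520 (+).
eEF1gamma: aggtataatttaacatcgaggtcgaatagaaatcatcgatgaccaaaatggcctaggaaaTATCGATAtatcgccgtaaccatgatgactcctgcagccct
eIF1: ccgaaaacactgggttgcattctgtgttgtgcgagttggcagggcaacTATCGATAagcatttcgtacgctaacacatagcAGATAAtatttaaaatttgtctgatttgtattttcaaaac
eIF3a: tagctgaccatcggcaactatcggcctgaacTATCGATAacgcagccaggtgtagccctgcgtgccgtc
eIF4A: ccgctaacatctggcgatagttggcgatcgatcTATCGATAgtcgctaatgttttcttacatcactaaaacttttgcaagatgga
eIF4EHP: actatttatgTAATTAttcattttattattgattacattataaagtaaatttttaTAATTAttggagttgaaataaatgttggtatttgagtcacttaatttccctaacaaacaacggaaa
eIF2Bbeta: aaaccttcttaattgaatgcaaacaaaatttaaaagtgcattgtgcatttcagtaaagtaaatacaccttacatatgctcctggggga
IleRS: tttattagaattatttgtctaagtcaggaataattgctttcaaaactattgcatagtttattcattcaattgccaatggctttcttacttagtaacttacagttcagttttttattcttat
At eEF1gamma the word begins on the summit base itself. The eIF4EHP peak holds TAATTA at 2 places, 1 of them at the summit, while the eIF2Bbeta and IleRS windows hold none of the words searched.

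Of the other words, Motif 1 (GGTCACAC in the orientation searched, and its reverse complement), another core promoter element of flies, was at 2 of 36 summits (5.56%, against 3.90%), eIF2A and eIF2Bdelta. The paired-type homeodomain dimer site TAATNNNATTA was at 1 (2.78%, against 3.32%), eIF4EHP. The E-box CAGCTG and the GATA word AGATAA were at 3 each (8.33%, against 10.1% and 14.7%). A peak counted once per word, and words could share bases.

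The DRE was also counted at the starts themselves, within 200 bp of any start, whether or not a peak was there. It was present at 19 of 85 members (22.4%), against 9.72% of all protein-coding genes. It was at 9 of the 36 bound members (25.0%) and at 10 of the 49 unbound ones (20.4%). Over all protein-coding genes the rates were 14.5% with an IDR peak and 7.77% without. By group the DRE was at 11 of 44 initiation, 2 of 8 elongation and 5 of 18 cytosolic synthetase genes, and at 1 of 15 mitochondrial synthetase genes. Unbound genes with a DRE at a start included IleRS, TrpRS, eIF2gamma, eIF3f1, eIF3l and eIF4B.

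**Figure D5:**
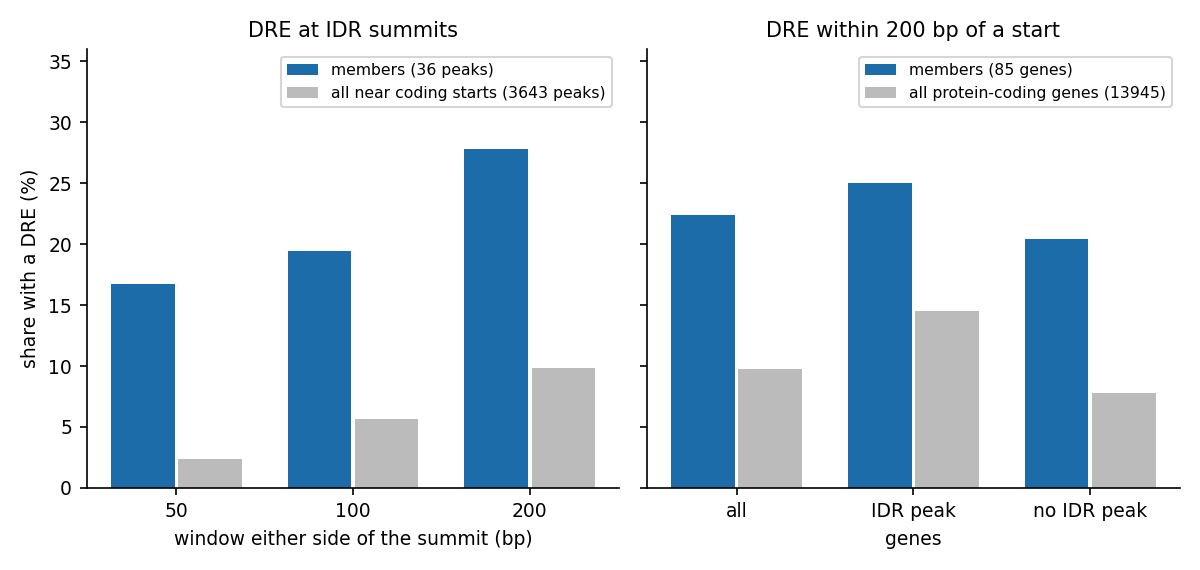
Left, share of IDR peaks with a DRE within 50, 100 or 200 bp of the summit (bars from 0, percent), for the members' 36 peaks and all 3643 near coding starts. Right, share of genes with a DRE within 200 bp of a start, for all genes and for those with and without an IDR peak; the members' bars are the taller ones throughout, also among genes with no IDR peak.

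The TCT initiator (CCTTT or TCTTT with its C within 5 bp of a start, on the gene's strand), a promoter element known from fly ribosomal protein genes, was less common here than in that list. It was at 8 of 85 members (9.41%), against 3.31% of all protein-coding genes and 60.9% of the cytoplasmic ribosomal protein genes. The 8 were ThrRS, TyrRS, eEF2, eEF5, eIF3f1, eIF3i, eIF3m and eIF4A. Of them 5 had an IDR peak, and of the 77 members without the element 31 did (40.3%). Over all protein-coding genes the same split gave 44.6% with the element and 28.4% without.

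Other genes of translation, outside the symbol rule, split in the same lists. All 5 release, recycling and rescue factors (eRF1, eRF3, pix, pelo and HBS1) had an IDR peak, and so did 9 of 14 regulators of initiation. With each IDR summit given to the nearest start alone, the 5 factors and 7 of the 14 regulators kept one. All protein-coding genes were then at 21.7%. The strongest of those was at Lk6, the kinase of eIF4E, with a signal of 1371, 1592 and 1017 in replicates 1, 2 and 3. Thor, the 4E-binding protein, had 94.0, 111 and 111. None of the 10 genes listed as mitochondrial translation factors had an IDR peak, while 5 had a pooled one, beside the pooled background of 50.6%. Those with a pooled peak included mEFG1 and mIF2. The list also holds mTTF, a transcription termination factor, which had no pooled peak. Of 6 synthetase subunits and partners outside the rule, alpha-PheRS and Slimp had one. The IDR counts stand beside the 28.9% of all protein-coding genes, and the lists are small.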

How the data were processed

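Deposited peak lists of 3 PHDP-GFP ChIP-seq replicates, a pooled list and an IDR list were used. Per the file headers and accompanying notes, the authors called peaks on dm6 for each replicate, and for the replicates together, against 1 control alignment; the sources used here name no aligner or caller. Each peak has the authors' signal value, of unstated scale, and a deposited −log10 q-value, which is 4.24 for every peak of the IDR list and was not used to rank. Replicate peaks were ranked by signal.

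Start sites came from the Ensembl release 115 annotation and sequence from the RefSeq copy of the release 6 genome; every peak end lies within its chromosome arms. A summit within 1 kb of any start (1000 bp) bound the gene. Replicate peaks were matched to a bound member's pooled summit within 100 bp. For members without an IDR peak, the values given are those of the strongest summit within 1 kb in each replicate. The members and lists were chosen with earlier results of these data known. Genes given values were the 4 bound members of each group with the highest pooled signal, up to 4 unbound ones by gene length, and the paralogue sets; IleRS and MetRS come in by length, GlnRS was named after its values were seen, as were the genes listed for a count. Symbols mEFG2, mtRF1 and Tor matched no gene. Replicates are labelled biological replicates, and p-values measure the spread between them. Shares over genes carry 95% exact binomial intervals, which cover counting over genes only. Group differences were tested by a two-sided exact sign-flip permutation test over 3 replicates. Alternatives changed the distance, the number of peaks, the start sites, the word window and the replicates. Peak assignment was tested on simulated data. Python 3.11.15, numpy 2.4.6, pandas 2.3.3 and scipy 1.17.1 were used.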

Additional observations from a re-analysis of the deposited data

How the results depend on the processing

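The 131 recomputed values covered 23 results. Group differences among these results were judged by sign alone, and none changed sign. The other values were judged against the replicate spread or the interval over genes. By these rules 114 values counted as the same and 17 moved further. The differences from the ribosomal protein lists, and eIF3 minus the single factors, were not recomputed. Fewer or more peaks changed the level of the shares, together with the background. With the 3546 strongest IDR peaks the members' share was 24.7% (all protein-coding genes 17.2%) and that of the initiation factors 20.5%. Requiring the strongest 5000 peaks of all 3 replicates, an alternative chosen after seeing the data, gave 27.1% (17.3%) and 22.7%. With the strongest 2500 peaks per replicate the means were 18.0% for all members, 15.9% for initiation factors, 29.2% for elongation factors, 27.8% for cytosolic and 6.67% for mitochondrial synthetases, and with the strongest 10000 they were 51.0%, 46.2%, 58.3%, 68.5% and 40.0%. The median summit distance was -78.0 bp when summits had to lie within 500 bp. Members minus all protein-coding genes was 11.8 ± 3.68 points in the main setting and 14.3 with the strongest 10000 peaks. It was 4.72 with the strongest 2500, a move beyond that SD. Initiation minus elongation factors went from -18.9 ± 4.73 to -13.3 with the strongest 2500 peaks and -12.1 with the strongest 10000. Initiation factors minus cytosolic synthetases went from -15.2 ± 6.41 to -22.3 with the strongest 10000. These moves too were beyond the SD. Cytosolic minus mitochondrial synthetases stayed within its SD. With each IDR summit given to the nearest start alone, initiation factors were at 31.8%, cytosolic synthetases at 27.8% and mitochondrial synthetases at 26.7%, which turns the order of the first 2 and nearly closes the gap between the last 2. TAATTA was at 25.0% of the members' summits within 200 bp, against 28.8% of all IDR peaks near coding starts.

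Setting aside each replicate in turn lowered every IDR share but that of the elongation factors, because peaks then had to be matched in both others. The IDR list was made from all 3 replicates and was not called anew. The ranges from it are thus for subsets of its peaks. They were 30.6% to 34.1% for the members (background 21.6% to 22.7%), 29.5% to 31.8% for initiation factors and 50% throughout for elongation factors. For cytosolic and mitochondrial synthetases they were 33.3% to 38.9% and 20.0% to 26.7%. The replicate means ranged from 32.4% to 35.9% for the members, 28.4% to 33.0% for initiation factors, 44.4% to 47.2% for cytosolic and 16.7% to 26.7% for mitochondrial synthetases. The differences ranged from 9.75 to 13.3 points for members minus all protein-coding genes, 17.8 to 30.6 for cytosolic minus mitochondrial synthetases, -18.8 to -12.6 for initiation factors minus cytosolic synthetases and -21.6 to -17.0 for initiation minus elongation factors. The median distance ranged from -102.0 to -87.0 bp, the upstream share from 89.7% to 92.6%, the share with a divergent partner from 69.0% to 74.1%, the DRE share from 17.2% to 23.1% and the TAATTA share from 3.70% to 6.90%.

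No paired analysis was possible because all 3 samples belong to 1 group. Depth is unknown, so an unbound gene means no called peak. The exact test cannot go below 0.25 with 3 replicates, and groups of 5 to 18 genes move by several points with 1 gene. A peak between divergent starts counts for both genes.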

Other observations

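Of the 36 bound genes, 9 had a peak among the first 1000 of the pooled list, of which 4 were initiation factors, 1 an elongation factor, 3 cytosolic synthetases and 1 a mitochondrial synthetase. The share of all bound protein-coding genes at such ranks was not computed, so these counts have no background. The median pooled signal of the 36 peaks was 327 (median rank 3186), against 359 over all bound protein-coding genes. At the other end, 21 of the 85 members had no summit within 1 kb in any of the 4 lists of the replicates and the pool, among them LeuRS, TrpRS, TyrRS, eIF3e, eIF3i, eIF3k and eIF4B. The same count over all protein-coding genes was not made, so it is not shown to be a trait of the members. In the pooled list alone, 39 of 85 members and 6890 of 13945 protein-coding genes had no summit.

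Replicate 3 had the most members near its strongest 5000 peaks, and ProRS-m and PheRS-m were near them in that replicate alone, at ranks 3711 and 3985, with no summit in the whole lists of replicates 1 and 2. Over the whole replicate lists, 112 of 11262 positions matched in all 3 replicates (0.994%) had no pooled summit within 1 kb, and GlnRS was one of the 2 members with a summit in each replicate's list and none in the pooled list.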
